A study of Rattus norvegicus with 20 samples.

Results

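Messenger RNA levels of 10 genes of the TNF and TWEAK receptor and NF-kB pathway were compared across tumour-bearing rats without chemotherapy, with chemotherapy, and with chemotherapy on a fish oil diet. The genes were chosen by symbol among the 32495 named rows of the count table, and all 10 had a row: the receptors Tnfrsf1a and Tnfrsf12a, the kinase Map3k14 and the ubiquitin ligase Birc3, the NF-kB subunits Nfkb1, Nfkb2, Rela and Relb, and the inhibitors Nfkbia and Tnfaip3. Gastrocnemius muscle was taken from female Fischer 344 rats that all carried a Ward colorectal carcinoma. TUMOUR STD (5 libraries) received the standard semipurified diet and no chemotherapy, CHEMO STD (7 libraries) received the same diet with cycles of CPT-11 (irinotecan, a topoisomerase I inhibitor) followed by 5-FU (5-fluorouracil, a thymidylate synthase inhibitor), and CHEMO FO (8 libraries) was switched to an isocaloric diet containing fish oil, a source of EPA and DHA, when chemotherapy began. No group without a tumour was analysed here. The study asked for the effect of chemotherapy from CHEMO STD versus TUMOUR STD and for the effect of diet from CHEMO FO versus CHEMO STD. CHEMO FO versus TUMOUR STD was added here and shares all of its samples with the other comparisons.

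TNF binds the receptor encoded by Tnfrsf1a, and TWEAK, encoded by Tnfsf12, binds Fn14, encoded by Tnfrsf12a; both ligands are known for their roles in muscle wasting. In the canonical branch of the pathway the IKK complex marks the inhibitor IkB-alpha (Nfkbia) for destruction, which frees dimers such as those of p50 (from Nfkb1) and p65 (Rela) to enter the nucleus. In the non-canonical branch the kinase NIK (Map3k14), which is held at low levels by TRAF proteins and the cellular inhibitors of apoptosis, including the product of Birc3, drives the processing of p100 to p52 (Nfkb2), the partner of Relb. Nfkbia, Tnfaip3 (which encodes the ubiquitin-editing enzyme A20), Birc3, Nfkb1, Nfkb2 and Relb are themselves well-known NF-kB targets. The pathway is switched largely through protein destruction and movement into the nucleus, neither of which was measured here.

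The deposited values were raw read counts per gene, which summed to 3020821 to 10857477 per library on named genes. Levels are given as CPM, each count relative to the TMM-scaled size of its library, and they are not compared between genes, because CPM does not account for gene length. CHEMO STD replicates 1 and 2 had a chi-square per gene of 2.23 over genes of 500 counts or more, where sampling noise alone gives about 1. The 58 remaining within-group pairs gave 13.7 to 255. Replicates 1 and 2 thus differed by more than the sampling noise, but by far less than any other pair. These 2 replicates were therefore counted as 1 sample, which left 5, 6 and 8 samples. Marker sums of skeletal muscle fibre genes (7 of 10 listed genes had a row, none at 0) were 171449 to 244559 CPM in all samples but CHEMO FO 18, in which they were 127048 CPM. CHEMO FO 18 also held the highest sum of 10 macrophage markers (663 CPM, against 186 to 410 CPM elsewhere), of 5 satellite cell markers (83.1 CPM, against 45.6 to 80.0 CPM) and the lowest sums of fibroblast, endothelial and smooth muscle markers. CHEMO STD 7 held the highest sum of B cell markers (63.5 CPM) and of adipocyte markers (554 CPM). TUMOUR STD 10 held the highest sum of keratinocyte markers (500 CPM, against 107 CPM in the highest CHEMO FO sample and 7.25 CPM in the highest CHEMO STD sample). Smooth muscle markers were at 202 to 285 CPM in TUMOUR STD, 102 to 185 CPM in CHEMO STD and 71.0 to 208 CPM in CHEMO FO, so the first 2 groups did not overlap, and the median endothelial sum was 299.8 CPM in TUMOUR STD against 233 and 228 CPM in CHEMO STD and CHEMO FO.

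Promoter sequence was at hand for 8 of the 10 genes, as windows of 300 bases (250 before and 50 after the start) of the RefSeq rat assembly GRCr8, with none for Relb and Birc3. The windows were searched on both strands for the kappa-B consensus, a motif of 10 bases bound by NF-kB dimers. It was found in 4 of the 8 windows, and in 2515 of the 33469 windows of the whole table (7.51%). The 4 genes with a match, Nfkb1, Nfkb2, Nfkbia and Tnfaip3, are shown because their own regulation by NF-kB is the textbook feedback of the pathway, and the matches are in capitals. The windows lie at chr2:226805413-226805712 (minus strand, Nfkb1), chr1:255108124-255108423 (plus strand, Nfkb2), chr6:78597023-78597322 (minus strand, Nfkbia) and chr1:15543930-15544229 (minus strand, Tnfaip3).
Nfkb1: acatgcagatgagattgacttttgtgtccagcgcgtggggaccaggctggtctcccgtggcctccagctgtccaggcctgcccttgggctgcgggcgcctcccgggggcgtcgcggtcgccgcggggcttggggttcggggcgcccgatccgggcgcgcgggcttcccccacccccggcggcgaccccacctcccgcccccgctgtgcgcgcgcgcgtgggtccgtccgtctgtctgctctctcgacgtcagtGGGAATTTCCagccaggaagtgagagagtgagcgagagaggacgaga
Nfkb2: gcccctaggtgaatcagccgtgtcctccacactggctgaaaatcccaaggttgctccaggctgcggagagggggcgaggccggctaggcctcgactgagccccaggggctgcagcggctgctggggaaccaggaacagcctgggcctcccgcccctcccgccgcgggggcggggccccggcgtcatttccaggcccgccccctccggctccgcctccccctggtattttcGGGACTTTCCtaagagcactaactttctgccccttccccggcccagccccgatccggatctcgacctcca
Nfkbia: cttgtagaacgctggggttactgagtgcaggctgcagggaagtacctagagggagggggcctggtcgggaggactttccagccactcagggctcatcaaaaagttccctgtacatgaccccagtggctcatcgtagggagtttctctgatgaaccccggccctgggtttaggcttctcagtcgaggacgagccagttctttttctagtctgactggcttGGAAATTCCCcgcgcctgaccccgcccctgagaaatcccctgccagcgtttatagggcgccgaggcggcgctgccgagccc
Tnfaip3: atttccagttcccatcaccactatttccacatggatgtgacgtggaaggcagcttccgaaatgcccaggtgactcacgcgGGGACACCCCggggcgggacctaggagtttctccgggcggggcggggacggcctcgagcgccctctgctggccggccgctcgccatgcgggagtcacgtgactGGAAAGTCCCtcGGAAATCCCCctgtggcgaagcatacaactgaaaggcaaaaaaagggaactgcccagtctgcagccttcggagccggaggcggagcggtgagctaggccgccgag
Counted from the start as +1, with each window read in the direction of its gene, the match GGGAATTTCC of Nfkb1 lay at +4 to +13 and the match GGGACTTTCC of Nfkb2 at -20 to -11, both on the strand of the gene. The match of Nfkbia lay on the opposite strand at -31 to -22. Tnfaip3 held matches at 3 places, at -170 to -161 on both strands, and at -67 to -58 and -55 to -46 on the opposite strand. The windows of Tnfrsf1a, Tnfrsf12a, Rela and Map3k14 held no match. Among the lists of other genes given further on, the share of windows with one was 13.3% of 15 for receptors, 14.3% of 21 for adaptors and ubiquitin enzymes, 25.0% of 16 for other NF-kB and IkB genes, 28.6% of 14 for ligands, 32.1% of 28 for NF-kB targets, 33.3% of 3 for muscle atrophy genes and 57.1% of 7 for the IKK complex and its relatives. A match describes letters in a window and is no measurement of binding.

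None of the 10 genes passed the thresholds of the study's methods, a p below 0.05 before adjustment together with a 1.5-fold change, in any comparison. All 10 passed the filter on low counts, so 0 of 10 were called in CHEMO STD versus TUMOUR STD, against 2.38% of the 11716 genes tested. The count was also 0 of 10 in CHEMO FO versus CHEMO STD, against 1.66% of all genes, and in CHEMO FO versus TUMOUR STD 0 of 10, against 3.6%. DESeq2 and limma voom, run beside edgeR, also called 0 of 10 in each comparison. An exact permutation test (two-sided, on the difference of group means of log2 CPM), computed for all 30 pairs of a gene and a comparison, gave a p below 0.05 in 2, unadjusted: Nfkb2 in CHEMO FO versus CHEMO STD (0.0153) and Nfkb1 in CHEMO FO versus TUMOUR STD (0.0194). By the p threshold alone, edgeR's quasi-likelihood test counted 0 of 10 genes in CHEMO STD versus TUMOUR STD (6.5% of all genes), Nfkb2 in CHEMO FO versus CHEMO STD (4.51%) and Nfkb1 in CHEMO FO versus TUMOUR STD (9.04%). Both tests used the same samples, and the permutation test was not run on the other genes of the table. No gene of the whole table passed a Benjamini-Hochberg adjusted p of 0.05 in edgeR, and the smallest adjusted p over all genes was 0.652, 0.974 and 0.426 in the comparisons in that order. Because whole muscle was sequenced, a change in the number of cells of a type and a change in RNA per cell cannot be told apart in any of these values.

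**Figure D1:**
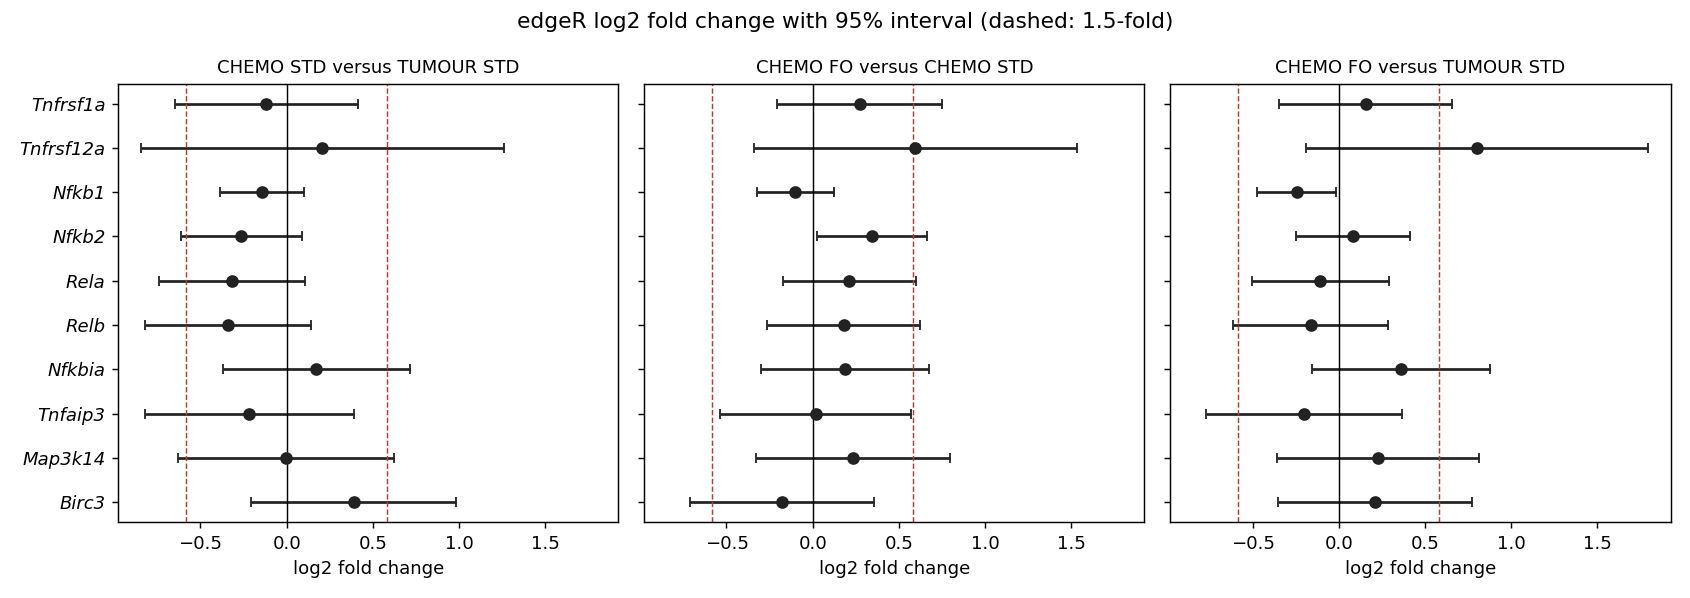
edgeR log2 fold change of each gene (points) with its 95% interval (bars) in the 3 comparisons; the dashed lines mark a 1.5-fold change in either direction. Only the intervals of Nfkb2 in CHEMO FO versus CHEMO STD (0.02 to 0.66) and of Nfkb1 in CHEMO FO versus TUMOUR STD (-0.47 to -0.01) lay clear of 0.

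In CHEMO STD versus TUMOUR STD, 7 of the 10 genes had a negative log2 fold change and 3 a positive one, with a median of -0.13 beside 0.00 over all genes. One of the 7, Map3k14, lay at 0.00 and took the other sign under other scalings. In CHEMO FO versus CHEMO STD, 8 were positive, with a median of 0.20 beside -0.01 over all genes. In CHEMO FO versus TUMOUR STD, 6 were positive and 4 negative, with a median of 0.12 beside 0.00. Without CHEMO FO 18 the last comparison turned to 4 positive and 6 negative with a median of -0.04, and CHEMO FO versus CHEMO STD had 7 positive with a median of 0.12. These medians also moved with other libraries. CHEMO STD versus TUMOUR STD was at -0.08 without TUMOUR STD 12 and -0.09 without CHEMO STD 5, and CHEMO FO versus CHEMO STD at 0.12 without CHEMO STD 3. In both of these comparisons the median grew in size without CHEMO STD 7, and also with CHEMO STD replicates 1 and 2 both left out. CHEMO FO versus TUMOUR STD was at 0.07 without TUMOUR STD 8 or CHEMO FO 16, 0.06 without TUMOUR STD 9, 0.05 without TUMOUR STD 11 and 0.18 without TUMOUR STD 10. The ranges of the groups overlapped for all 10 genes in each comparison. The share of all genes that did so was not computed, so this count is not read as a result about the 10. The 95% interval lay wholly within a 1.5-fold change for Nfkb1 in all 3 comparisons, for Tnfaip3 in CHEMO FO versus CHEMO STD, and for Nfkb2 and Rela in CHEMO FO versus TUMOUR STD. For the other genes the intervals reached past 1.5-fold in at least 1 direction, so a change of that size lay within them.

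**Figure D2:**
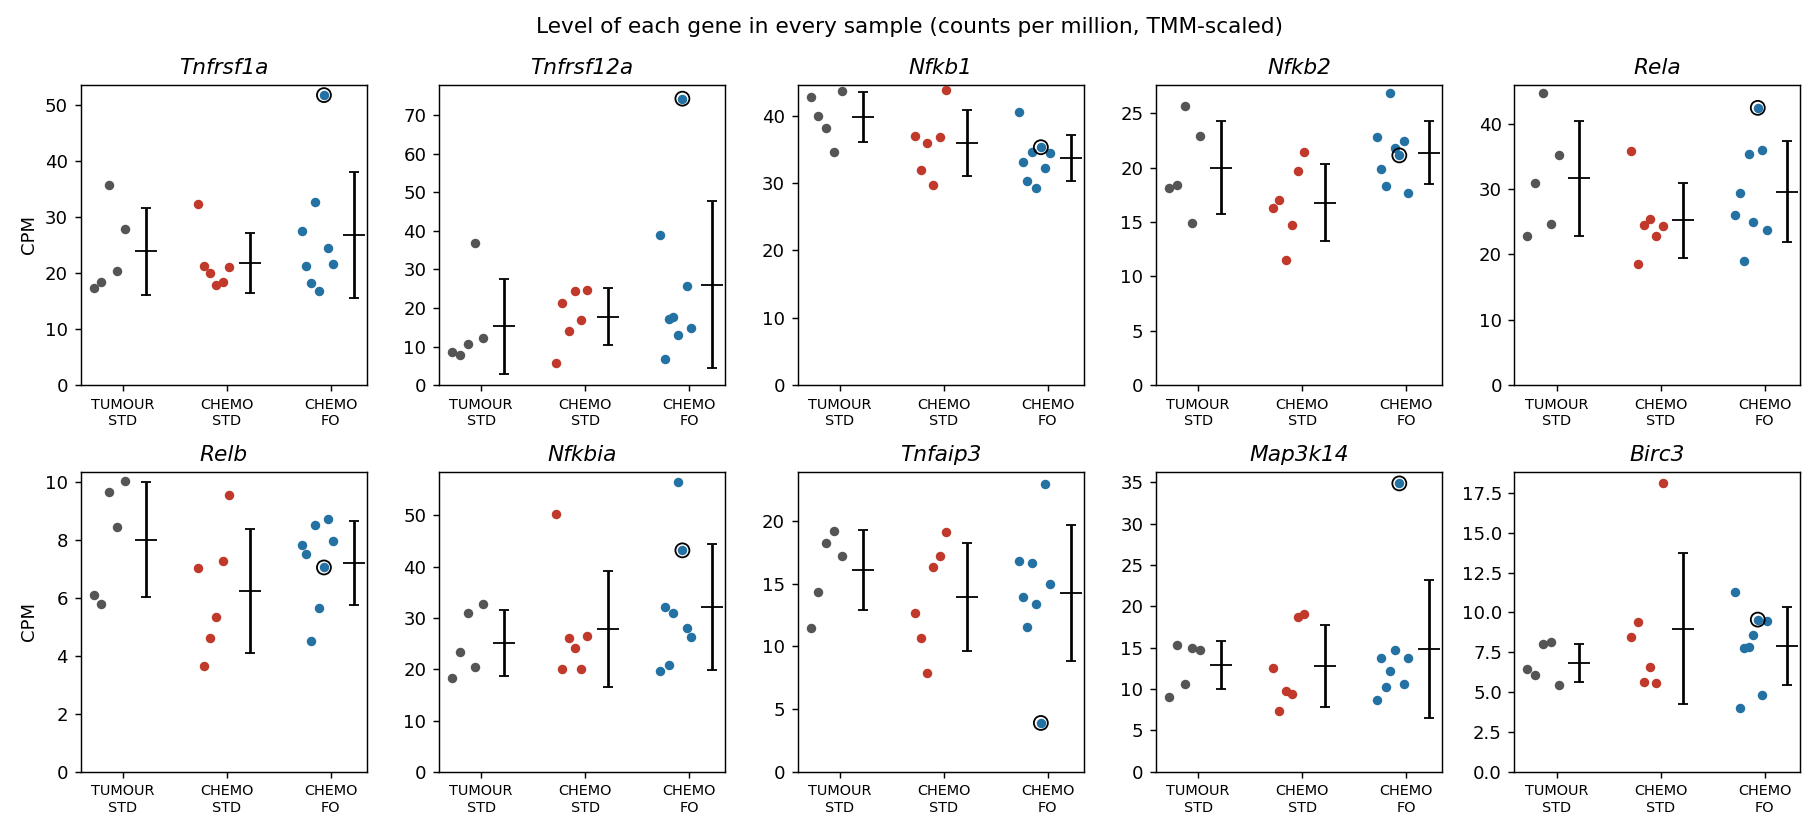
Level of each gene in every sample, in CPM on TMM-scaled library sizes, with each axis starting at 0. Points are samples (TUMOUR STD n = 5, CHEMO STD n = 6, CHEMO FO n = 8), bars are mean and SD, and the circled point is CHEMO FO 18, the highest sample for Tnfrsf1a, Tnfrsf12a and Map3k14 and the lowest for Tnfaip3.

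The ligands came from a list of the TNF family. Tnf was listed at 0 counts in all 20 libraries. Map3k7, a kinase that cells use widely downstream of TNF and IL-1 receptors, was also listed at 0 in all 20, so a count of 0 in this table is not read as an absent transcript. Tnfsf12, which encodes TWEAK, was measured at 13.1 ± 4.26 CPM in TUMOUR STD (SD, n = 5), 12.8 ± 3.12 CPM in CHEMO STD (n = 6) and 11.9 ± 2.27 CPM in CHEMO FO (n = 8). Its log2 fold changes were -0.02 (SE 0.211) in CHEMO STD versus TUMOUR STD and -0.14 (SE 0.192) in CHEMO FO versus CHEMO STD, and neither was called.

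Tnfrsf1a, the receptor that carries most TNF signals to NF-kB, was at 17.4, 18.4, 20.3, 27.8 and 35.8 CPM in the TUMOUR STD samples. In CHEMO STD it ranged from 17.9 to 32.4 CPM with a median of 20.5 CPM, and in CHEMO FO from 16.8 to 51.8 CPM with a median of 23.0 CPM. Each group held 1 sample well above its median, namely TUMOUR STD 10, the joined CHEMO STD sample of replicates 1 and 2, and CHEMO FO 18. The means were 23.9 ± 7.77, 21.8 ± 5.36 and 26.8 ± 11.3 CPM (SD, n = 5, 6 and 8). Its log2 fold change was -0.12 (95% interval -0.65 to 0.41) in CHEMO STD versus TUMOUR STD, 0.27 (-0.21 to 0.75) in CHEMO FO versus CHEMO STD and 0.16 (-0.34 to 0.66) in CHEMO FO versus TUMOUR STD. Without CHEMO FO 18 the last 2 were 0.05 and -0.05. Without TUMOUR STD 10 the first turned positive, at 0.09, and the last was 0.36, and with the joined sample left out the first was -0.27 and the second 0.44.

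Tnfrsf12a, the TWEAK receptor Fn14, which is low in resting muscle and is known to be induced on injury and denervation, varied most of the 10 genes. It was at 7.70, 8.70, 10.6, 12.1 and 36.9 CPM in the TUMOUR STD samples. In CHEMO STD it ranged from 5.62 to 24.5 CPM with a median of 19.03 CPM, and in CHEMO FO from 6.85 to 74.3 CPM with a median of 17.4 CPM. The highest value came from CHEMO FO 18, 13.2 times the lowest, which was that of the joined CHEMO STD sample, and the next highest were CHEMO FO 13 (39.1 CPM) and TUMOUR STD 11 (36.9 CPM). The means were 15.2 ± 12.2, 17.8 ± 7.28 and 26.1 ± 21.8 CPM (SD, n = 5, 6 and 8), so each SD was a large part of its mean.
The log2 fold change of Tnfrsf12a was 0.21 (95% interval -0.85 to 1.26) in CHEMO STD versus TUMOUR STD, 0.60 (-0.34 to 1.54) in CHEMO FO versus CHEMO STD and 0.80 (-0.19 to 1.79) in CHEMO FO versus TUMOUR STD. These were the widest intervals of the 10 genes. Single samples set much of the size. Without CHEMO FO 18 the comparisons with CHEMO FO fell to 0.14 and 0.34, and without TUMOUR STD 11 CHEMO FO versus TUMOUR STD reached 1.42 and met both thresholds, with an adjusted p of 0.364 in edgeR. No other gene of the 10 was called with any library left out.

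Map3k14, the kinase NIK of the non-canonical branch, was at 9.05, 10.6, 14.8, 14.9 and 15.3 CPM in the TUMOUR STD samples. It ranged from 7.29 to 19.1 CPM in CHEMO STD (median 11.2 CPM) and from 8.68 to 34.9 CPM in CHEMO FO (median 13.0 CPM). CHEMO FO 18 stood apart at 34.9 CPM, with the next CHEMO FO sample at 14.7 CPM. Map3k14 had a log2 fold change of 0.00 (95% interval -0.63 to 0.62) in CHEMO STD versus TUMOUR STD, 0.23 (-0.33 to 0.80) in CHEMO FO versus CHEMO STD and 0.23 (-0.36 to 0.81) in CHEMO FO versus TUMOUR STD. Without CHEMO FO 18 the last 2 changed sign, to -0.09 and -0.08.

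Birc3, which encodes the ubiquitin ligase cIAP2, was at 5.45, 6.10, 6.44, 8.03 and 8.12 CPM in the TUMOUR STD samples, 5.60 to 18.1 CPM in CHEMO STD (median 7.51 CPM) and 3.98 to 11.3 CPM in CHEMO FO (median 8.21 CPM). The highest value came from CHEMO STD 7, with the next CHEMO STD sample at 9.42 CPM. CHEMO STD 7 was also the library with the highest B cell and T cell marker sums, 63.5 CPM and 52.6 CPM, against 3.82 CPM and 28.9 CPM at most in TUMOUR STD and 1.504 CPM and 22.3 CPM at most in CHEMO FO, and of the highest adipocyte sum, 554 CPM, against 240 CPM at most in TUMOUR STD and 431 CPM at most in CHEMO FO. Over the 19 samples Birc3 had an r of 0.66 with the adipocyte sum, 0.53 with the B cell sum and 0.34 with the T cell sum. These r include CHEMO STD 7, the highest sample for Birc3 and for each of these sums, and r without it was not computed. The part of those cells in the Birc3 value was not tested. Birc3 had a log2 fold change of 0.39 (95% interval -0.20 to 0.98) in CHEMO STD versus TUMOUR STD and -0.18 (-0.71 to 0.36) in CHEMO FO versus CHEMO STD. Without CHEMO STD 7 these were 0.07 and 0.15. Birc3 has a close paralog in Birc2, and how reads common to both were counted was not given.

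Among the subunits, Nfkb1 (p105, the precursor of p50) varied least of the 10 genes. It was at 34.6, 38.2, 39.9, 42.8 and 43.6 CPM in the TUMOUR STD samples, 29.8 to 43.8 CPM in CHEMO STD (median 36.4 CPM) and 29.3 to 40.5 CPM in CHEMO FO (median 33.8 CPM). The CHEMO FO samples lay mostly below the TUMOUR STD samples, but CHEMO FO 13, CHEMO FO 16 and CHEMO FO 18 lay above the lowest of them. The means were 39.8 ± 3.66, 35.9 ± 4.87 and 33.7 ± 3.46 CPM (SD, n = 5, 6 and 8).
The log2 fold change of Nfkb1 was -0.14 (SE 0.118) in CHEMO STD versus TUMOUR STD and -0.10 (SE 0.107) in CHEMO FO versus CHEMO STD, the latter -0.04 without CHEMO STD 7, its highest sample. Its value in CHEMO FO versus TUMOUR STD was -0.24 (SE 0.111), with an unadjusted p of 0.0395 and an adjusted p of 0.541 in edgeR. That p rose above 0.05 in 9 of the 20 fits that each left out 1 library, and the ratio of 0.845 did not reach a 1.5-fold change. With the joined CHEMO STD sample left out the value was -0.23, with an unadjusted p of 0.0530 and an adjusted p of 0.532 in edgeR.

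Nfkb2 (p100, the precursor of p52) was at 14.9, 18.1, 18.4, 22.9 and 25.7 CPM in the TUMOUR STD samples, 11.5 to 21.4 CPM in CHEMO STD (median 16.7 CPM) and 17.7 to 26.9 CPM in CHEMO FO (median 21.5 CPM). CHEMO STD held most of the lower values, and CHEMO STD 6 and CHEMO STD 7 lay within the range of CHEMO FO. The means were 20.01 ± 4.26, 16.8 ± 3.52 and 21.4 ± 2.90 CPM (SD, n = 5, 6 and 8).
The log2 fold change of Nfkb2 was -0.26 (SE 0.169) in CHEMO STD versus TUMOUR STD and 0.08 (SE 0.159) in CHEMO FO versus TUMOUR STD. Its value in CHEMO FO versus CHEMO STD was 0.34 (SE 0.154), a 1.27-fold difference with an unadjusted p of 0.0358 and an adjusted p of 0.974 in edgeR. Leaving out each of the 20 libraries in turn moved that p above 0.05 in 6 fits. Without CHEMO FO 18 the value was 0.35, so it did not rest on that library. With the joined CHEMO STD sample left out the value was 0.33, with an unadjusted p of 0.0588 and an adjusted p of 0.735 in edgeR.

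Rela, which encodes p65, the main activating subunit of the canonical branch, was at 22.8, 24.7, 31.0, 35.2 and 44.7 CPM in the TUMOUR STD samples, 18.5 to 35.8 CPM in CHEMO STD (median 24.4 CPM) and 19.05 to 42.5 CPM in CHEMO FO (median 27.7 CPM). The highest samples were TUMOUR STD 10, CHEMO FO 18, CHEMO FO 19 and the joined CHEMO STD sample. For Rela the log2 fold change was -0.32 (95% interval -0.74 to 0.10) in CHEMO STD versus TUMOUR STD and 0.21 (-0.17 to 0.60) in CHEMO FO versus CHEMO STD. Without TUMOUR STD 10 the first was -0.15, and with the joined sample left out it was -0.44 with an unadjusted p of 0.0404 and an adjusted p of 0.419 in edgeR.

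Relb, the partner of p52, had the lowest counts of the 10 genes, 12 to 101 per library. It was at 5.80, 6.09, 8.44, 9.66 and 10.0 CPM in the TUMOUR STD samples, 3.65 to 9.55 CPM in CHEMO STD (median 6.18 CPM) and 4.51 to 8.71 CPM in CHEMO FO (median 7.66 CPM). The lowest sample was CHEMO STD 3 and the highest TUMOUR STD 12. For Relb the log2 fold change was -0.34 (95% interval -0.82 to 0.14) in CHEMO STD versus TUMOUR STD and 0.18 (-0.26 to 0.62) in CHEMO FO versus CHEMO STD. Without CHEMO STD 7, the highest sample of its group, the first was -0.49 with an unadjusted p of 0.0439 and an adjusted p of 0.763 in edgeR, short of a 1.5-fold change.

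All 4 subunits had a negative log2 fold change in CHEMO STD versus TUMOUR STD, between -0.34 and -0.14, and 3 of the 4 had a positive one in CHEMO FO versus CHEMO STD, between 0.18 and 0.34. Because both comparisons contain the CHEMO STD samples, a low value in that group gives opposite signs in them. None of the 8 values was called. Beside these values, the CHEMO STD samples all had smaller smooth muscle marker sums than the TUMOUR STD samples, and a smaller median endothelial sum. Medians in CHEMO FO and CHEMO STD were 228 and 233 CPM for the endothelial sum and 162 and 147 CPM for smooth muscle. The median fibroblast sum was 5650 CPM in TUMOUR STD, 3915 CPM in CHEMO STD and 3907 CPM in CHEMO FO. Over the 19 samples, r with the endothelial sum was 0.49 for Nfkb1, 0.47 for Rela, 0.40 for Relb and 0.24 for Nfkb2. The fibroblast sum gave 0.40, 0.46, 0.38 and 0.29 in the same order. The highest r with any marker sum was 0.49 for Nfkb1 (B cell), 0.60 for Rela (keratinocyte), and 0.54 for Relb and for Nfkb2 (satellite cell). With the smooth muscle sum the 4 subunits had 0.10 to 0.31. The part of those cells in the subunit values was not tested.

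Of the inhibitors, Nfkbia, which encodes IkB-alpha and is among the quickest NF-kB targets, was at 18.3, 20.5, 23.3, 30.9 and 32.7 CPM in the TUMOUR STD samples. It ranged from 20.05 to 50.3 CPM in CHEMO STD (median 25.1 CPM) and from 19.7 to 56.5 CPM in CHEMO FO (median 29.5 CPM). The joined CHEMO STD sample (50.3 CPM), CHEMO FO 17 (56.5 CPM) and CHEMO FO 18 (43.2 CPM) lay above the rest. For Nfkbia the log2 fold change was 0.17 (95% interval -0.37 to 0.72) in CHEMO STD versus TUMOUR STD, 0.19 (-0.30 to 0.67) in CHEMO FO versus CHEMO STD and 0.36 (-0.16 to 0.88) in CHEMO FO versus TUMOUR STD. With the joined sample left out, the first was -0.09 and the second 0.46, the latter with an unadjusted p of 0.0470 and an adjusted p of 0.735 in edgeR.

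Tnfaip3, which encodes A20, an enzyme that shuts off signalling from the TNF receptor complex, was at 11.5, 14.3, 17.2, 18.3 and 19.2 CPM in the TUMOUR STD samples. It ranged from 7.87 to 19.1 CPM in CHEMO STD (median 14.5 CPM) and from 3.89 to 23.0 CPM in CHEMO FO (median 14.5 CPM). The lowest value was that of CHEMO FO 18, the sample with the highest Tnfrsf1a, and the highest that of CHEMO FO 19. The log2 fold change was -0.22 (95% interval -0.82 to 0.39) in CHEMO STD versus TUMOUR STD and 0.02 (-0.54 to 0.57) in CHEMO FO versus CHEMO STD. Without CHEMO FO 18 the second was 0.18.

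The spread between samples of a group differed widely from gene to gene. The coefficient of variation, averaged over the 3 groups, was 11.0% for Nfkb1, 18.6% for Nfkb2, 25.5% for Rela, 26.3% for Relb, 29.4% for Tnfaip3, 33.1% for Tnfrsf1a, 33.7% for Birc3, 34.7% for Nfkbia, 39.2% for Map3k14 and 68.3% for Tnfrsf12a. Counting error alone would give 6.54% for Nfkb1 and 14.8% for Relb, the lowest and highest of the 10, and 8.89% for Tnfrsf12a. The spread between samples exceeded the counting error for all 10 genes.

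**Figure D3:**
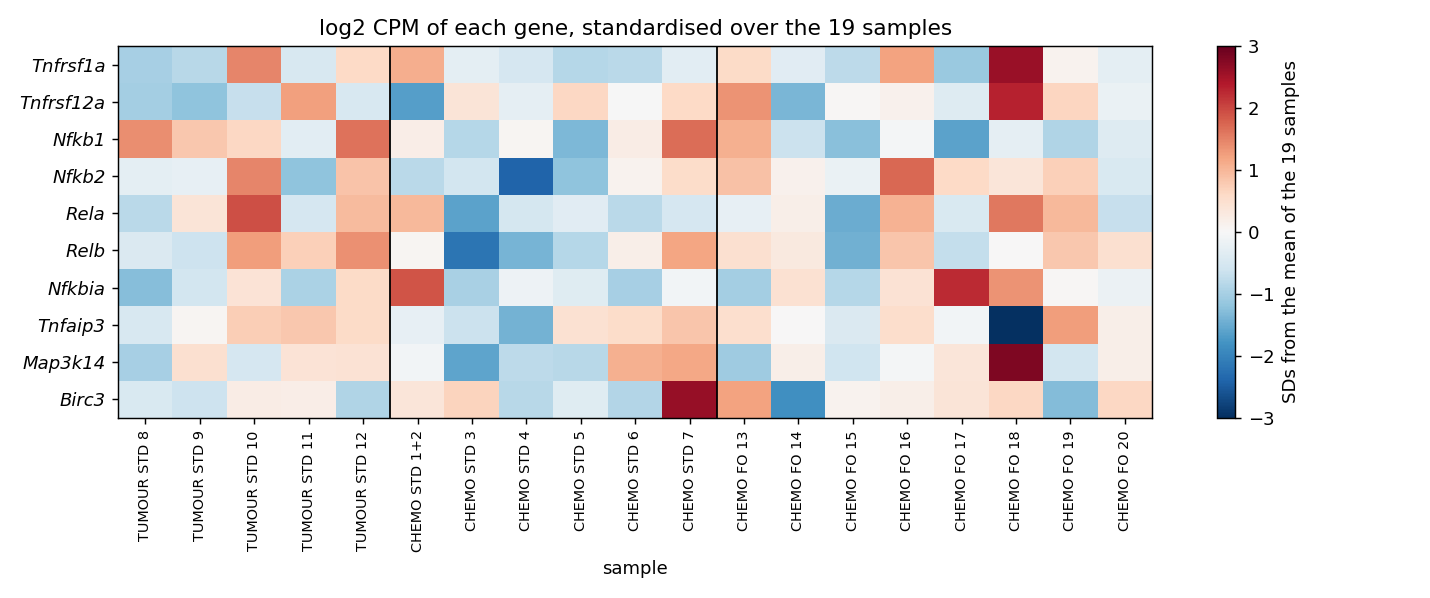
log2 CPM of each gene (rows) in the 19 samples (columns), as SDs from the gene's mean over all samples; black lines separate TUMOUR STD, CHEMO STD and CHEMO FO. CHEMO FO 18 is the deepest red for Tnfrsf1a, Tnfrsf12a and Map3k14 and the deepest blue for Tnfaip3, and CHEMO STD 7 the deepest red for Birc3.

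CHEMO FO 18 held the highest of all samples for 3 genes (Tnfrsf1a 51.8 CPM, Tnfrsf12a 74.3 CPM, Map3k14 34.9 CPM) and the lowest for Tnfaip3 (3.89 CPM). Its Nfkb1 (35.3 CPM), Nfkb2 (21.1 CPM) and Relb (7.04 CPM) lay within the range of the other CHEMO FO samples. Its TMM factor was 1.18, against 0.928 to 1.06 in the others. The same library held 2640 CPM of Trim63 and 1902 CPM of Fbxo32, which encode the muscle atrophy ubiquitin ligases MuRF1 and atrogin-1, against group means of 226 ± 23.0 and 223 ± 84.5 CPM in TUMOUR STD (SD, n = 5). The part of its high macrophage and low muscle fibre marker sums in these values was not tested.

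**Figure D4:**
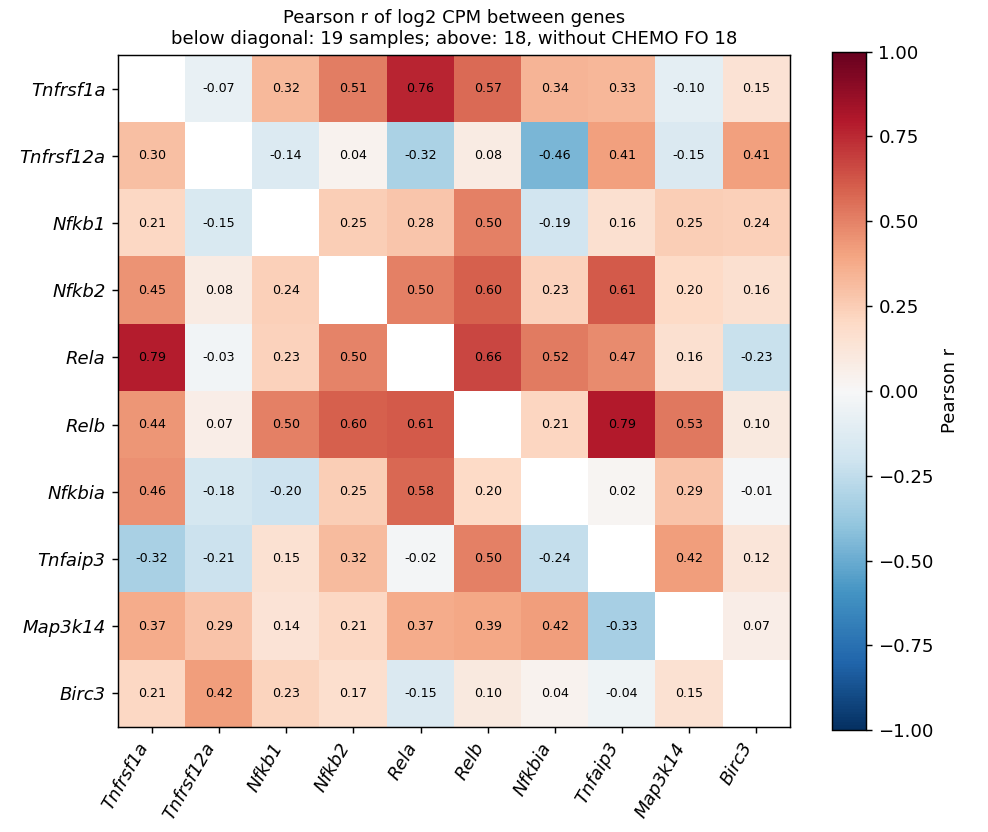
Pearson r of log2 CPM between each pair of the 10 genes, below the diagonal over all 19 samples and above it over 18 samples without CHEMO FO 18; both axes list the genes, and red is positive and blue negative. The pair Tnfrsf1a and Rela is among the deepest red on both sides (0.79 and 0.76), and Relb and Tnfaip3 reach 0.79 only without CHEMO FO 18.

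Across the 19 samples the genes did not move as 1 block. Of the 45 pairs, 6 had a Pearson r of log2 CPM above 0.5 and 11 were below 0, with a median of 0.21, and these values are descriptions over samples that share groups, depth and tissue make-up. The highest was that of Tnfrsf1a with Rela, at 0.79 (Spearman's rho 0.64), followed by Rela with Relb at 0.61, Nfkb2 with Relb at 0.60 and Rela with Nfkbia at 0.58. The partners of the non-canonical dimer, Nfkb2 and Relb, were among the more alike of these 45 pairs, although Relb had a slightly higher r with Rela. Without CHEMO FO 18 their r of 0.60 was below those of Relb with Tnfaip3 (0.79) and Tnfrsf1a with Rela (0.76). It was also below those of Rela with Relb (0.66) and Nfkb2 with Tnfaip3 (0.61). Tnfrsf12a, by contrast, had an r of 0.42 at most over the 19 samples, with Birc3.
CHEMO FO 18 moved several pairs. Tnfaip3 with Map3k14 changed sign, from -0.33 with it to 0.42 without it, as did Tnfrsf12a with Map3k14, from 0.29 to -0.15, whereas Relb with Tnfaip3 was positive both ways, at 0.50 and 0.79. Without that sample 11 pairs were above 0.5, with a median of 0.24.
Of 120 pairs of a gene and a marker sum (12 cell types), 6 had an r of 0.6 or beyond over the 19 samples and 11 without CHEMO FO 18, and their part in the values was not tested. Over all samples these were Tnfaip3 with muscle fibre (0.75, and 0.43 without CHEMO FO 18) and smooth muscle (0.64, and 0.33), Tnfrsf1a with macrophage (0.71, and 0.497), Birc3 with adipocyte (0.66, and 0.70), Map3k14 with satellite cell (0.63, and 0.54) and Rela with keratinocyte (0.60, and 0.67). Without that sample Tnfrsf1a also reached 0.80 with fibroblast, 0.72 with muscle fibre, 0.63 with keratinocyte and 0.61 with Schwann cell markers. Rela reached 0.71 with fibroblast and 0.70 with endothelium, Relb 0.64 and Nfkb2 0.62 with muscle fibre, and Map3k14 0.61 with neutrophil markers, whose sum was at most 6.82 CPM.

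For each gene, the 3 genes of the table with the most similar pattern over the 19 samples were taken by Pearson r of log2 CPM. Those of Tnfrsf1a were C1r (0.91), a complement protease, Tubb5 (0.89) and Ifitm3 (0.89), an interferon-induced membrane protein. Those of Rela were Xbp1 (0.92), a transcription factor of the unfolded protein response, Gja1 (0.91), which encodes connexin 43, and Anxa2 (0.89). Those of Tnfrsf12a were Xirp1 (0.81), which encodes the Xin actin-binding protein of striated muscle, Rnd1 (0.80) and Gtf2f2 (0.79). All of these stayed at 0.70 or above without CHEMO FO 18.
Map3k14 was most like C3 (0.84), the central complement component, Mafg (0.80) and Phf1 (0.80), which fell to 0.68, 0.61 and 0.62 without CHEMO FO 18. Tnfaip3 was most like Fam20c (0.92), Tor3a (0.91) and Slc41a3 (0.90). Relb was most like Hspbp1 (0.85), LOC683674 (0.85) and Stk40 (0.81), and Nfkb2 most like Dapk3 (0.82), Eif3c (0.81) and Fem1a (0.80). Nfkb1 was most like Mfng (0.82), a Notch-modifying glycosyltransferase, Cox4i2 (0.81) and Hvcn1 (0.74), and Nfkbia most like Klhl21 (0.84), Plekhf1 (0.79) and S1pr1 (0.76). The lowest values were those of Birc3, with Ripor2 (0.74), Itpk1 (0.72) and the inflammasome sensor Nlrp3 (0.72). None of the 10 genes was among another's 3 most similar.

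Of 122 other genes listed for the pathway by role, 119 had a row and 78 passed the filter on low counts. In edgeR, 1 of these 78 (1.28%) was called in CHEMO STD versus TUMOUR STD, 0 in CHEMO FO versus CHEMO STD and 3 (3.85%) in CHEMO FO versus TUMOUR STD, beside 2.38%, 1.66% and 3.6% of all genes. At an unadjusted p below 0.05 alone they were 4, 2 and 8, beside 6.5%, 4.51% and 9.04% of all genes. With the 5 muscle atrophy genes included, DESeq2 (run without that filter) and voom each called 1 listed gene in CHEMO FO versus CHEMO STD. The median edgeR log2 fold changes of the 78 genes were 0.00, 0.01 and 0.02. Only 5 of 18 ligands and 10 of 21 receptors had enough reads to be tested, against 26 of 27 adaptors and ubiquitin enzymes, all 8 genes of the IKK complex and its relatives, 12 of 14 other NF-kB and IkB genes and 17 of 31 NF-kB targets. No adaptor, IKK gene, ligand or other NF-kB or IkB gene was called by edgeR in any comparison. Of these 51 genes, 3, 2 and 4 had an unadjusted p below 0.05, beside the same 6.5%, 4.51% and 9.04% of all genes.

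**Figure D5:**
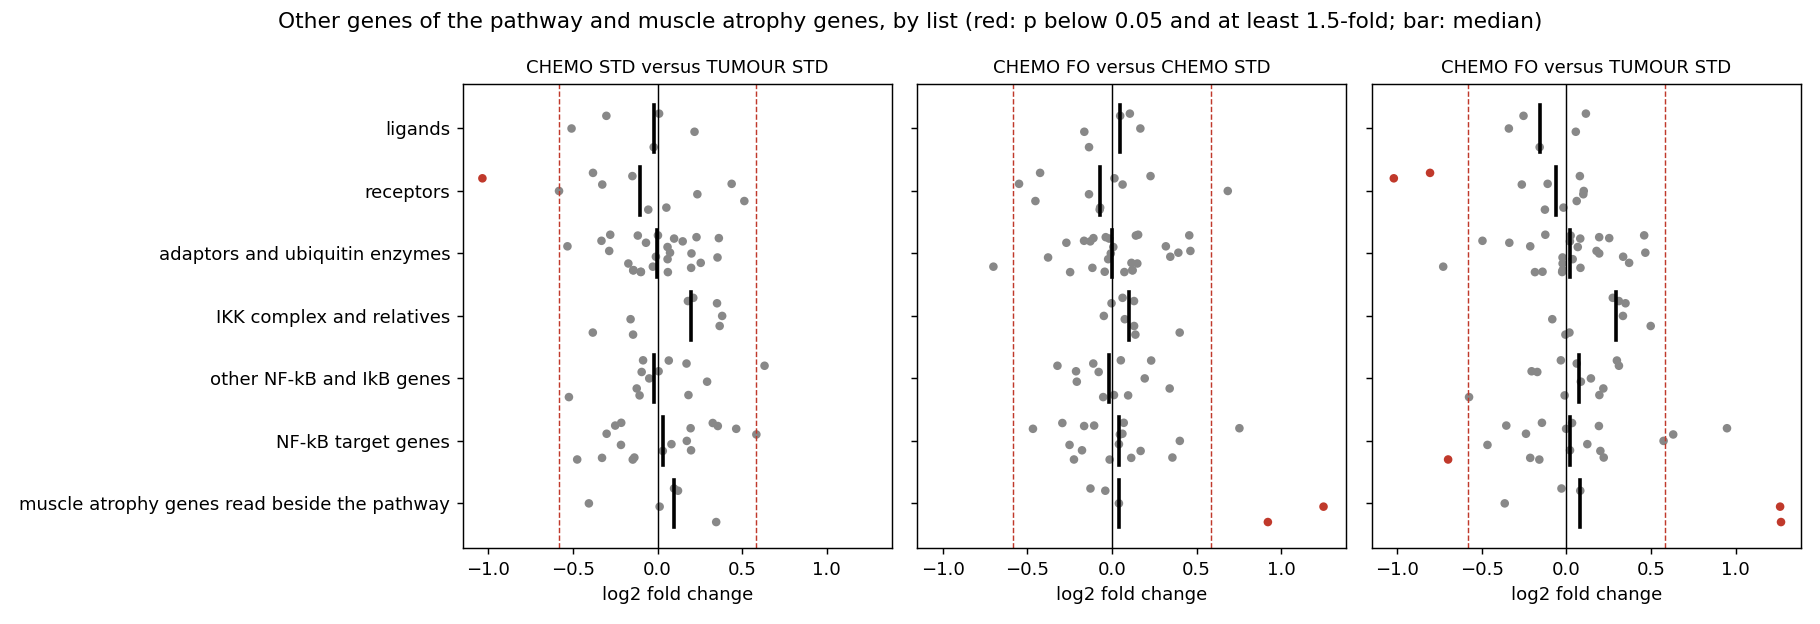
edgeR log2 fold changes (horizontal axis) of the 78 other pathway genes and 5 muscle atrophy genes tested, by list (rows) and comparison (panels). Points are genes, black bars are list medians, dashed lines mark 1.5-fold, and red points met both thresholds, namely 1, 2 and 5 genes in the panels from left to right, of which the 2 in the middle panel and 2 of the 5 are atrophy genes.

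Edar, the receptor of ectodysplasin, known for the development of hair and skin glands, was lower in both chemotherapy groups. It was at 3.69 ± 0.9749 CPM in TUMOUR STD (SD, n = 5), 1.75 ± 0.407 CPM in CHEMO STD (n = 6) and 1.88 ± 1.05 CPM in CHEMO FO (n = 8), on at most 46 counts per library. The log2 fold change was -1.04 (SE 0.379) in CHEMO STD versus TUMOUR STD and -1.02 (SE 0.357) in CHEMO FO versus TUMOUR STD, with adjusted p of 0.719 and 0.486 in edgeR, and both stayed called in each of the 20 fits without 1 library. The TUMOUR STD sample with the highest keratinocyte sum, TUMOUR STD 10, had the lowest Edar of its group (2.29 CPM). The part of keratinocytes in the Edar values was not tested.
The receptor Tnfrsf19 (log2 fold change -0.81, SE 0.368, adjusted p 0.540 in edgeR) and the NF-kB target Tnfaip8 (-0.70, SE 0.307, adjusted p 0.5259) fell in CHEMO FO versus TUMOUR STD. The Tnfrsf19 call was lost in 7 of the 20 fits that left out 1 library (TUMOUR STD 8, 9 or 10, CHEMO FO 13, 15, 18 or 19), with a log2 fold change of -0.58 without CHEMO FO 18. That of Tnfaip8 was lost in 5 (TUMOUR STD 8, CHEMO FO 13, 15, 16 or 19), with a log2 fold change of -0.46 without TUMOUR STD 8. Of 17 NF-kB targets tested, Tnfaip8 was the only one called in any comparison, and 9 were higher and 8 lower in each. Such targets as Il6, Il1b, Ptgs2, Cxcl1 and Nos2 did not reach the filter, with at most 12, 13, 27, 39 and 3 counts in a library.
Among 5 muscle atrophy genes read beside the pathway, Fbxo32 and Trim63 were called in both comparisons with CHEMO FO. In CHEMO FO versus CHEMO STD the log2 fold changes were 0.92 and 1.25, and without CHEMO FO 18 they were 0.30 and 0.14 and not called. The Fbxo32 call there was also lost without CHEMO STD 3, 4, 6 or 7 or CHEMO FO 15 or 17. In CHEMO FO versus TUMOUR STD they were 1.27 and 1.26, and without that sample 0.65 and 0.16, of which that of Fbxo32 was still called.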

How the data were processed

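Total RNA of 20 gastrocnemius samples was depleted of ribosomal RNA and sequenced as stranded libraries. Per the labels and the study's methods, the authors used CASAVA 1.9, trimmed reads with Trim Galore 0.4.1, checked them with FastQC 0.11.4, aligned them to the Rnor 6 genome with TopHat2 2.0.10 and Bowtie2, and summarised them per gene in Partek Flow with an Ensembl annotation. They deposited raw integer counts per gene, which are the values used here. For the counting, strand and multiple-mapping settings were not given in those sources. In the table, 2 values of 1 gene were written in scientific notation and so were rounded.

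Of 32883 rows, 388 had no gene name (0.102% to 0.272% of a library's counts) and were left out. The analysis used edgeR 4.0.16 (R 4.3.3): counts of CHEMO STD replicates 1 and 2 were summed, genes were filtered by default (minimum count 10, minimum total 15), libraries were TMM-scaled, and all 3 groups entered 1 quasi-likelihood fit, with Benjamini-Hochberg adjustment over 11716 genes. A gene was called at p below 0.05 and a fold change of at least 1.5. Intervals are at 95%. Means and SDs of CPM took the average of replicates 1 and 2, and log2 CPM for correlations had a prior count of 2. The labels do not say that each library came from a separate animal, so p-values measure the spread between these samples.

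Members, lists and tests were chosen with earlier results of these data known. Named genes were all 10 members, pathway genes called in any comparison and, for each member, the 3 genes of highest correlation; Tnf, Tnfsf12, Map3k7 and 5 targets below the filter were named after their values were seen. Exact permutation p-values of the members were computed for all 30 gene comparisons and were to be printed for called members; none was called, and the 2 below 0.05 were added after their values were seen. Alternatives were RLE factors, library totals, no filter, a stricter filter (mean of 10 counts), DESeq2 1.42.0, limma 3.58.1 voom, fits of only the groups compared, replicates 1 and 2 separate or left out, no fold threshold, and each library left out. The pipeline was tested on simulated data. Promoter windows came from RefSeq. Plots used Python 3.11.15 and matplotlib 3.10.9.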

Additional observations from a re-analysis of the deposited data

Results flagged for a closer look

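Dixon's test on CPM was run in 30 groups of values (10 genes in 3 conditions). In 6 of them the highest sample stood far from the others of its group. The test flags about 1 group in 20 by chance where values are normal and groups independent. These CPM were not on a log scale and the 10 genes share their samples, so the 6 are not read as an excess. Tnfrsf1a was at 32.4 CPM in the joined CHEMO STD sample of replicates 1 and 2, with the next at 21.3 CPM, and at 51.8 CPM in CHEMO FO 18, with the next at 32.6 CPM. Tnfrsf12a was at 36.9 CPM in TUMOUR STD 11, with the next at 12.1 CPM. Nfkbia was at 50.3 CPM in the joined CHEMO STD sample, with the next at 26.5 CPM. Map3k14 was at 34.9 CPM in CHEMO FO 18, with the next at 14.7 CPM, and Birc3 at 18.1 CPM in CHEMO STD 7, with the next at 9.42 CPM. CHEMO FO 18 and the joined CHEMO STD sample each account for 2 of the 6.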

How the results depend on the processing

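Of 900 recomputed log2 fold changes of the 10 genes, 863 kept their direction and their side of the thresholds, 36 changed sign and 1 came to be called (Tnfrsf12a in CHEMO FO versus TUMOUR STD, 1.42 without TUMOUR STD 11); the cause was not tested. None of the values that changed sign was called. Map3k14 in CHEMO STD versus TUMOUR STD lay near 0 and was 0.0042 with RLE factors, 0.016 with library totals, 0.0015 and 0.0010 in DESeq2 on all samples and on only the groups compared, 0.0032 in edgeR on only the groups compared and 0.017 with replicates 1 and 2 left out. With those replicates left out Nfkbia in the same comparison was -0.087. Tnfaip3 in CHEMO FO versus CHEMO STD was -0.037 with library totals and -0.017 with those replicates left out, and Map3k14 in CHEMO FO versus TUMOUR STD was -0.080 in voom. Leaving out 1 library at a time gave ranges that crossed 0 for Tnfrsf1a (-0.20 to 0.086) and Map3k14 (-0.15 to 0.10) in CHEMO STD versus TUMOUR STD, for Tnfaip3 (-0.12 to 0.18), Map3k14 (-0.090 to 0.38) and Birc3 (-0.29 to 0.15) in CHEMO FO versus CHEMO STD, and for Tnfrsf1a (-0.055 to 0.36), Nfkb2 (-0.0066 to 0.20), Rela (-0.19 to 0.059) and Map3k14 (-0.084 to 0.31) in CHEMO FO versus TUMOUR STD.

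Counts are given first for chemotherapy (CHEMO STD versus TUMOUR STD), then for diet (CHEMO FO versus CHEMO STD), then for both together (CHEMO FO versus TUMOUR STD), and were 0, 0 and 0 members, 1, 2 and 5 other genes listed (78 pathway and 5 muscle atrophy genes, together called pathway genes in these counts), and 279, 195 and 422 of all genes. With 1 library left out they ranged from 0 to 0, 0 to 0 and 0 to 1 members, from 1 to 3, 0 to 4 and 4 to 8 pathway genes, and from 161 to 530, 153 to 234 and 273 to 584 of all genes. In CHEMO STD versus TUMOUR STD the count of all genes was 161 without TUMOUR STD 10, 530 without TUMOUR STD 8 and 450 without TUMOUR STD 11, and that of pathway genes 3 without TUMOUR STD 11 or CHEMO STD 7 and 2 without TUMOUR STD 8 or 10. In CHEMO FO versus CHEMO STD pathway genes were 0 without CHEMO FO 18, 1 without CHEMO STD 4 or 6 and 4 without CHEMO FO 15. In CHEMO FO versus TUMOUR STD they were 8 without TUMOUR STD 11 or CHEMO FO 20, and all genes 273 without CHEMO FO 18. Less the 5 muscle atrophy genes, a choice made after seeing the data, pathway genes called were 1, 0 and 3, and with 1 library left out 1 to 3, 0 to 3 (3 without CHEMO FO 15) and 3 to 6 (6 without TUMOUR STD 11 or CHEMO FO 20). Without the fold threshold the counts were 0, 1 and 1 members, 4, 4 and 10 pathway genes, and 762, 528 and 1059 of all genes. Without the filter on low counts, which raised the number of genes tested to 19364, they were 5, 7 and 10 pathway genes and 971, 722 and 1116 of all genes. Pathway genes called were 2 and 1 in the first 2 comparisons in DESeq2 on all samples, and 3 and 1 in DESeq2 on only the groups compared. They were 4, 1 and 2 in voom, 1 and 3 in the last 2 comparisons in edgeR on only the groups compared, and 3 and 1 in the first 2 with replicates 1 and 2 left out. Of all genes, DESeq2 on all samples called 314 in CHEMO FO versus CHEMO STD, DESeq2 on only the groups compared 422 in CHEMO STD versus TUMOUR STD, 16 of its genes passing the adjusted threshold, and edgeR with replicates 1 and 2 left out 603 in that comparison. In CHEMO FO versus TUMOUR STD, DESeq2 on all samples called 541 genes, and 12 genes passed its adjusted threshold.

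No paired analysis was possible because the groups share no replicate numbers. Depth limited Relb and Birc3 most, with mean counting errors of 14.8% and 13.98%, and kept most ligands and many inflammatory targets from being tested. With 5 to 8 samples a group, changes of 1.5-fold were within the interval of most of the 10 genes.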
